A study of Mus musculus with 24 samples.

Results

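Integrins and the proteins that tie them to actin are described here across 3 sorted CD31+ cell populations of the mouse embryo and 2 antibody treatments. A fixed list of 36 genes was matched by gene symbol to the deposited tables, and all 36 were found among the 29716 genes counted. They are 16 alpha subunits, 8 beta subunits and 12 linkers. Itgam is listed under 2 identifiers, so the list covers 37 identifiers. Of the 36 genes, 32 had enough counts to be tested. The other 4 were Itga7, Itgad and Itgax, with 16, 5 and 5 counts over all libraries, and Itgb6, with 75 counts.

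An integrin at the cell surface is a pair of 1 alpha and 1 beta chain, and the pair decides which matrix protein or cell surface ligand is bound. Talin and kindlin bind the beta tail inside the cell and switch the pair to its high-affinity state. Vinculin, paxillin, zyxin and the complex of integrin-linked kinase with PINCH and parvin then join it to actin. The pair of Itga2b with Itgb3 is the fibrinogen receptor of platelets and megakaryocytes, and antibodies against its alpha chain, CD41, also mark early blood progenitors of the embryo. Beta1 pairs bind fibronectin, laminin and collagen in many cell types, and beta2 pairs belong to leukocytes.

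C57BL/6J embryos at E10.5 received anti-Dll4, an antibody against a Notch ligand of endothelium, or anti-human IgG by injection into the heart. All were then cultured for 5 h with the same antibody at 5 µg/ml, with 10 ng/ml of IL-3 and 10 µM hydrocortisone, so no group is free of culture. CD31+ cells were sorted as Kit+ CD45+, Kit+ CD45- or Kit- CD41+ CD45-, which makes 6 groups of 4 libraries. The number of embryos behind a library is not stated in the labels. Levels are CPM, that is counts scaled to a common library size after TMM normalization. A mean comes with the SD of the 4 libraries of its group. Differences are log2 fold changes with a standard error (SE) from edgeR's quasi-likelihood test.

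Library totals ran from 8718351 to 11379830 counts. Of the sort markers, Kit ranged from 45.4 to 79.8 CPM over the Kit+ CD45+ libraries, 21 to 48.7 CPM over the Kit+ CD45- libraries and 0.907 to 5.22 CPM over the Kit- CD41+ CD45- libraries. Ptprc, which encodes CD45, ranged from 53 to 117 CPM in the CD45+ sort and reached at most 1.51 CPM in the others, and Pecam1, which encodes CD31, was at 44.8 CPM or more in every library. The summed level of 11 platelet and megakaryocyte markers was 102 to 549 CPM over the Kit+ CD45+ libraries, 512 to 3664 CPM over the Kit+ CD45- libraries and 21644.6 to 29182 CPM over the Kit- CD41+ CD45- libraries. None of the 11 is among the 36 genes. The 10 endothelial markers summed to 1563 to 2224, 495 to 1953 and 183 to 298 CPM in the same order, and 9 macrophage markers to 197 to 2342, 7.65 to 25.3 and 2.02 to 12 CPM. The 9 erythroid genes summed to 214504 to 942404 CPM in Kit+ CD45- libraries, against 40829 to 160166 CPM in Kit- CD41+ CD45- libraries. In Kit+ CD45+ libraries those 9 genes summed to 52.3 to 180 CPM, with Slc4a1 at 0. Kit+ CD45- IgG replicate 1 stood apart: globin genes took 16.85% of its counts, against 27.37% to 33.71% in the other 3 of its group. Kit+ CD45- anti-Dll4 replicate 4 lay on the other side, with globin genes at 49.32% of its counts, against 22.08% to 36.2% in the other 3. Values without these libraries stand beside the results that changed most when they were left out. In bulk libraries, fewer cells of a type and less RNA per cell cannot be told apart.

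Upstream sequences from RefSeq (GRCm38.p6) were at hand for 25 of the 36 genes, with 30 start sites. Printed here are the kindlin pair Fermt2 and Fermt3, which took opposite sides in the comparison of populations, and Vcl, which shared a motif with Fermt2. Each runs 5′ to 3′ on the strand of its gene. Those of Fermt2 and Fermt3 end just before the first annotated base of the gene. That of Vcl stops short of its gene, whose first annotated base is 20929433. Fermt2 is chr14:45530119-45530315 on the minus strand, Fermt3 is chr19:7019470-7019719 on the minus strand and Vcl is chr14:20929148-20929397 on the plus strand. Capitals mark a CArG box, the site of serum response factor, in Fermt2 and Vcl, and the Runx core TGTGGT in Fermt3.
Fermt2: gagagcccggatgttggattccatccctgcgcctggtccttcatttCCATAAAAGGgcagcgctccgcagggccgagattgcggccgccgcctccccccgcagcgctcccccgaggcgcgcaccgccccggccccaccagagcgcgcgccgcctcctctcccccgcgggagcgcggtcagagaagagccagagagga
Fermt3: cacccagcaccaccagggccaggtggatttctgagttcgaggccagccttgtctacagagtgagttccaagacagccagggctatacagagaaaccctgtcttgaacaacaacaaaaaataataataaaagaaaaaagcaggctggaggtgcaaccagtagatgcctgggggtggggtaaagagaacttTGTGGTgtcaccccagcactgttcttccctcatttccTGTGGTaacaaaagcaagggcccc
Vcl: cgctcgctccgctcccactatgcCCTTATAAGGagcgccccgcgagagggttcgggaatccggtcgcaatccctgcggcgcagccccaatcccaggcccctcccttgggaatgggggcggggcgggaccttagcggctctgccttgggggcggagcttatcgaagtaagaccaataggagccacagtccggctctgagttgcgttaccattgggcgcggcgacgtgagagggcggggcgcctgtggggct

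Over the 250 bases before a start and on both strands, a CArG box stood in 3 of the 30 windows (Fermt2, Vcl and 1 of the Itgb6 starts), against 1.47% of 32851 mouse promoters of that length. TGTGGT stood in 5 of the 30, against 14% of all promoters. The Ets cores AGGAAG and CGGAAG stood in 11 and 5 of the 30, against 29.5% and 13.6%, and the GATA sites AGATAA and TGATAA in 2 and 0, against 9.99% and 7.94%. The Ets pair share their last 5 bases and the GATA pair share GATAA. The Ilk windows overlap and hold the same TGTGGT site and a shared CGGAAG site, so their counts are not independent. In the Itgb6 window with the CArG box, an AGGAAG on the other strand overlaps that box, so both count the same bases there. A match describes the letters of the window only.

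The populations differed first in which chains made up their integrin transcripts. After division by exon length, Itga2b made up most of the alpha chain transcripts of Kit- CD41+ CD45- cells, where Itgb3 came next to Itgb1 among the beta chains. In Kit+ CD45+ cells, Itga6 was the leading alpha chain and Itgb1 took nearly all of the beta chain transcripts. Kit+ CD45- cells stood between the others in both shares. Itga2b made up 16 ± 7.55% of the summed alpha level under anti-Dll4 and 11 ± 2.63% under IgG in Kit+ CD45+ cells. Its share was 40 ± 7.86% under anti-Dll4 and 39 ± 15.6% under IgG in Kit+ CD45- cells. Kit- CD41+ CD45- cells had 82.8 ± 3.73% under anti-Dll4 and 85.3 ± 2.66% under IgG. CD41 was a marker of that sort, so its level there is a description.

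In the mm10 build Itga2b lies at chr11:102453297-102470122 on the minus strand (ENSMUSG00000034664.13) and Itgb3 on the same chromosome, at chr11:104608000-104670476 on the plus strand (ENSMUSG00000020689.4). Itgb3, the beta chain that pairs with CD41, was no sort marker. It made up 3.04 ± 0.49% of the summed beta level under anti-Dll4 and 1.44 ± 0.503% under IgG in Kit+ CD45+ cells. The share was 10.2 ± 1.77% under anti-Dll4 and 10.3 ± 5.35% under IgG in Kit+ CD45- cells, and 39.6 ± 2.92% and 36.3 ± 2.94% in Kit- CD41+ CD45- cells. The wide SD of Kit+ CD45- cells under IgG came with replicate 1, at 2.41%, against 11.4% to 14% in the other 3. Itgb1, the beta chain of fibronectin, laminin and collagen receptors, took 90.1 ± 2.36% of the level in Kit+ CD45+ libraries, 83.9 ± 6.48% in the Kit+ CD45- sort and 52.5 ± 2.26% in the Kit- CD41+ CD45- sort under IgG. The summed beta level itself was 104 ± 13.9, 74.4 ± 8.27 and 181 ± 18.5 CPM per kb in that order, and the summed alpha level 24.6 ± 2.84, 27 ± 4.92 and 115 ± 31.1 CPM per kb.

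**Figure D1:**
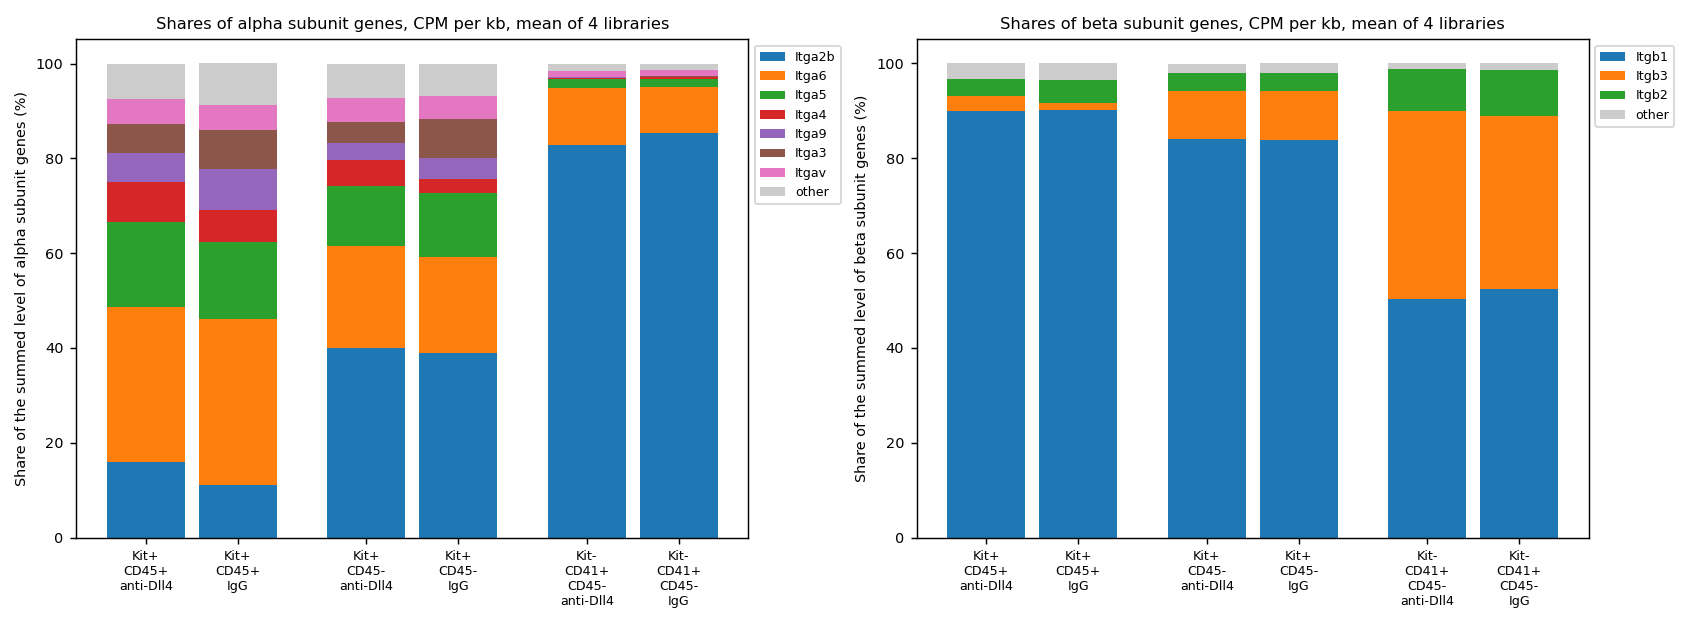
Shares of the summed alpha chain level and of the summed beta chain level taken by each gene, in percent of CPM per kb of exon, as the mean of 4 libraries for each population and antibody. Itga2b fills 82.8% to 85.3% of the alpha bar in Kit- CD41+ CD45- cells, against 11% to 16% in Kit+ CD45+ cells, where Itgb1 fills 90% to 90.1% of the beta bar.

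An integrin cannot be more abundant than its scarcer chain, so the lower of the paired transcript levels was taken as a description of each known pair. It is a transcript level and not a count of receptors. For Itga2b with Itgb3 under IgG it was 1.44 CPM per kb in Kit+ CD45+ cells, 7.05 CPM per kb in Kit+ CD45- cells and 65.2 CPM per kb in Kit- CD41+ CD45- cells. For Itga6 with Itgb1, a laminin receptor, it was 8.72, 5.3 and 10.8 CPM per kb in the same order. Itga5 with Itgb1, the main fibronectin receptor, gave 3.96, 3.72 and 2.1 CPM per kb. Itga4 with Itgb1, which binds Vcam1 and fibronectin, gave 1.65, 0.789 and 0.374 CPM per kb, and Itga9 with Itgb1 gave 2.07, 1.2 and 0.136. The leukocyte pair of Itgal with Itgb2 stood at 0.36, 0.23 and 0.794 CPM per kb. In Kit+ CD45+ cells the leading pair by this measure was therefore a laminin receptor. In Kit- CD41+ CD45- cells it was the platelet fibrinogen receptor, which had the highest mean in Kit+ CD45- cells as well. In Kit+ CD45- cells under IgG that pair ranged from 2 to 11 CPM per kb, against 4.88 to 5.69 CPM per kb for Itga6 with Itgb1. It therefore did not lead in every library of that group. Its lead in Kit+ CD45- cells also rests on the division by exon length.

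The first comparison of populations set the Kit+ CD45- sort against the Kit- CD41+ CD45- sort. Kit+ CD45- cells carried more of Itga1, Itga3, Itga4 and Itga9 and of the broadly expressed kindlin Fermt2. They carried less of Itgb1, Itgb2, Itgb3, Itgb4 and Itga6, and of most linkers: Lims1, Ilk, Tln1, Vcl, Zyx, Parvb and the blood cell kindlin Fermt3. Under IgG, 7 of the 32 tested genes were higher and 13 lower at an adjusted p under 0.05, where 14% and 13.8% of 15618 genes were (27.9% in both directions). Under anti-Dll4, 6 were higher and 14 lower, against 14.7% and 15.2% of all genes (29.9% in both). In all, 5 higher and 13 lower genes were called under both antibodies, in 2 sets of libraries that share none. Both sets of calls came from 1 fit over all 24 libraries with a common estimate of the spread, so they are not independent. The share of all genes called under both is not given here. The median difference of the 32 genes was -0.72 under IgG, against 0.06 over all tested genes. The lower genes include Itga2b, which encodes the sort marker CD41, here and in Kit+ CD45+ against Kit- CD41+ CD45- cells under both antibodies. In Kit+ CD45+ against Kit+ CD45- cells, neither sorted on CD41, Itga2b was called lower under IgG and not under anti-Dll4. By role, in Kit+ CD45- against Kit- CD41+ CD45- cells under IgG, 4 alpha chains were higher and 2 lower. There 0 beta chains were higher and 4 lower, and 3 linkers higher and 7 lower.

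Itga1 (chr13:114958079-115101964, minus strand) is a collagen receptor chain, and Itga9 (chr9:118606690-118901003, plus strand) a chain that binds tenascin and Vcam1. Itga1 had 9.22, 5.06, 10.8 and 10.1 CPM in Kit+ CD45- cells under IgG, against 0.257, 0.885, 0.501 and 0.333 CPM in Kit- CD41+ CD45- cells. Itga9 had 14.8, 7.24, 9.64 and 5.16 CPM, against 0.513, 1.06, 1.6 and 0.999 CPM. Neither gene's groups overlapped. The differences were 4.11 (SE 0.57, adjusted p = 7.21e-06) for Itga1 and 3.14 (SE 0.45, adjusted p = 1.18e-05) for Itga9. Under anti-Dll4 they were 3.28 (SE 0.56) and 2.16 (SE 0.45), and the value for Itga1 moved to 3.89 without Kit- CD41+ CD45- anti-Dll4 replicate 4. Itga4 was higher by 1.08 (SE 0.28, adjusted p = 0.00574) under IgG. Itga3, a laminin receptor chain, was higher by 3.27 (SE 0.69), or 3.93 without Kit- CD41+ CD45- IgG replicate 2. Under anti-Dll4 Itga3 was higher by 3.60 (SE 0.80), or 4.90 without Kit- CD41+ CD45- anti-Dll4 replicate 2, on 14 counts in that whole group.

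On the side of Kit- CD41+ CD45- cells stood Itgb3, the beta3 chain. It had 11.8, 43.2, 55.7 and 65.2 CPM in Kit+ CD45- cells under IgG, against 404, 366, 389 and 381 CPM in Kit- CD41+ CD45- cells. Under anti-Dll4 it had 25.1, 26.2, 41.4 and 23.6 CPM, against 426, 394, 387 and 352 CPM. The groups were far apart under either antibody, by -3.13 (SE 0.32, adjusted p = 1.19e-07) under IgG and -3.73 (SE 0.33) under anti-Dll4. Its partner Itga2b had 29.9, 60, 42.7 and 102 CPM in Kit+ CD45- cells under IgG, against 755, 551, 488 and 366 CPM in the CD41-sorted cells. Itgb2, the leukocyte beta chain, was lower in Kit+ CD45- cells (-2.83, SE 0.54), at -3.45 without Kit+ CD45- IgG replicate 2. Itgb4, a laminin receptor chain of epithelia, stood at 1.55 CPM in Kit+ CD45- cells under IgG and at 5.99 CPM in Kit- CD41+ CD45- cells (log2 fold change -1.95, SE 0.57, adjusted p = 0.0121). The smaller gap of Itgb1 (-0.60, SE 0.18, adjusted p = 0.0151) had an adjusted p of 0.0686 without Kit- CD41+ CD45- IgG replicate 1. Under anti-Dll4 the Itgb1 value was -1.04 (SE 0.18).

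The linkers had the smallest p values of the list. Lims1 lies at chr10:58323466-58424691 on the plus strand, Ilk at chr7:105736592-105742925 on the plus strand and Tln1 at chr4:43531519-43562691 on the minus strand. Lims1, which encodes PINCH1, had 339, 513, 529 and 591 CPM in Kit+ CD45- cells under IgG, against 2398, 2197, 2222 and 2660 CPM in Kit- CD41+ CD45- cells. Ilk, integrin-linked kinase, had 251, 365, 306 and 388 CPM, against 1547, 1483, 1413 and 1416 CPM. Tln1, the talin of blood cells and most tissues, had 53.7, 70.1, 80.4 and 78.7 CPM, against 326, 334, 321 and 313 CPM. All 3 groups of libraries lay far below those of Kit- CD41+ CD45- cells. The differences were -2.26 (SE 0.14) for Lims1, -2.16 (SE 0.14) for Ilk and -2.19 (SE 0.14) for Tln1, with adjusted p of 4.02e-10, 6.09e-10 and 4.02e-10. Ilk shares 76.7% of its exon length with Taf10 on the other strand, and Vcl shares 25.5% with Ap3m1. Whether counting used the strand is not given in the sources used here, so reads of these neighbours may be mixed. Taf10 itself averaged 495 ± 100 CPM in Kit+ CD45- cells and 1665 ± 53 CPM in Kit- CD41+ CD45- cells under IgG.

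Fermt2, the kindlin of most adherent cells, ran the other way. It had 112, 47.7, 70.7 and 59.4 CPM in Kit+ CD45- cells under IgG, against 19.6, 23.1, 32.2 and 26.1 CPM in Kit- CD41+ CD45- cells (1.52, SE 0.22, adjusted p = 9.76e-06). Fermt3, the kindlin of blood cells, averaged 205 ± 103 CPM against 1433 ± 400 CPM (-2.80, SE 0.45). Of the summed kindlin level per kb, Fermt2 therefore took 31.3 ± 19% in Kit+ CD45- cells, against 2.07 ± 0.799% in Kit- CD41+ CD45- cells. Of the parvins, which bind Ilk and actin, Parva and Parvb split in the same way. Parva had 61.5, 18.3, 27.8 and 24.8 CPM, against 5.56, 11.8, 11.4 and 9.88 CPM (1.78, SE 0.37, adjusted p = 0.000791), while Parvb averaged 14.5 ± 2.24 CPM against 65.7 ± 8.42 CPM (-2.18, SE 0.28). Parva took 47.2 ± 16.2% of the summed level of Parva and Parvb in Kit+ CD45- cells, against 6 ± 1.72% in Kit- CD41+ CD45- cells. The further parvin Parvg was placed among the signalling partners given below and is not in this share. Paxillin, Pxn, was higher by 1.77 (SE 0.37) under IgG, and by 1.08 without Kit+ CD45- IgG replicate 1, whose 24.4 CPM compares with 6.01 to 8.07 CPM in the other 3. Under anti-Dll4, Pxn (0.95, SE 0.38, adjusted p = 0.0627) and Parva (0.61, SE 0.37, adjusted p = 0.231) did not pass, though Pxn had an adjusted p of 0.0137 without that library, whose group enters the common estimate of the spread.

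Beside these differences, the 11 platelet markers summed to a median of 2945 CPM in Kit+ CD45- cells and 24935 CPM in Kit- CD41+ CD45- cells under IgG, and all 11 were lower in Kit+ CD45- cells. The 10 endothelial markers summed to a median of 1065 and 276 CPM. Their part in the values of Itgb3, Lims1, Fermt2 or any other gene of the list was not tested.

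**Figure D2:**
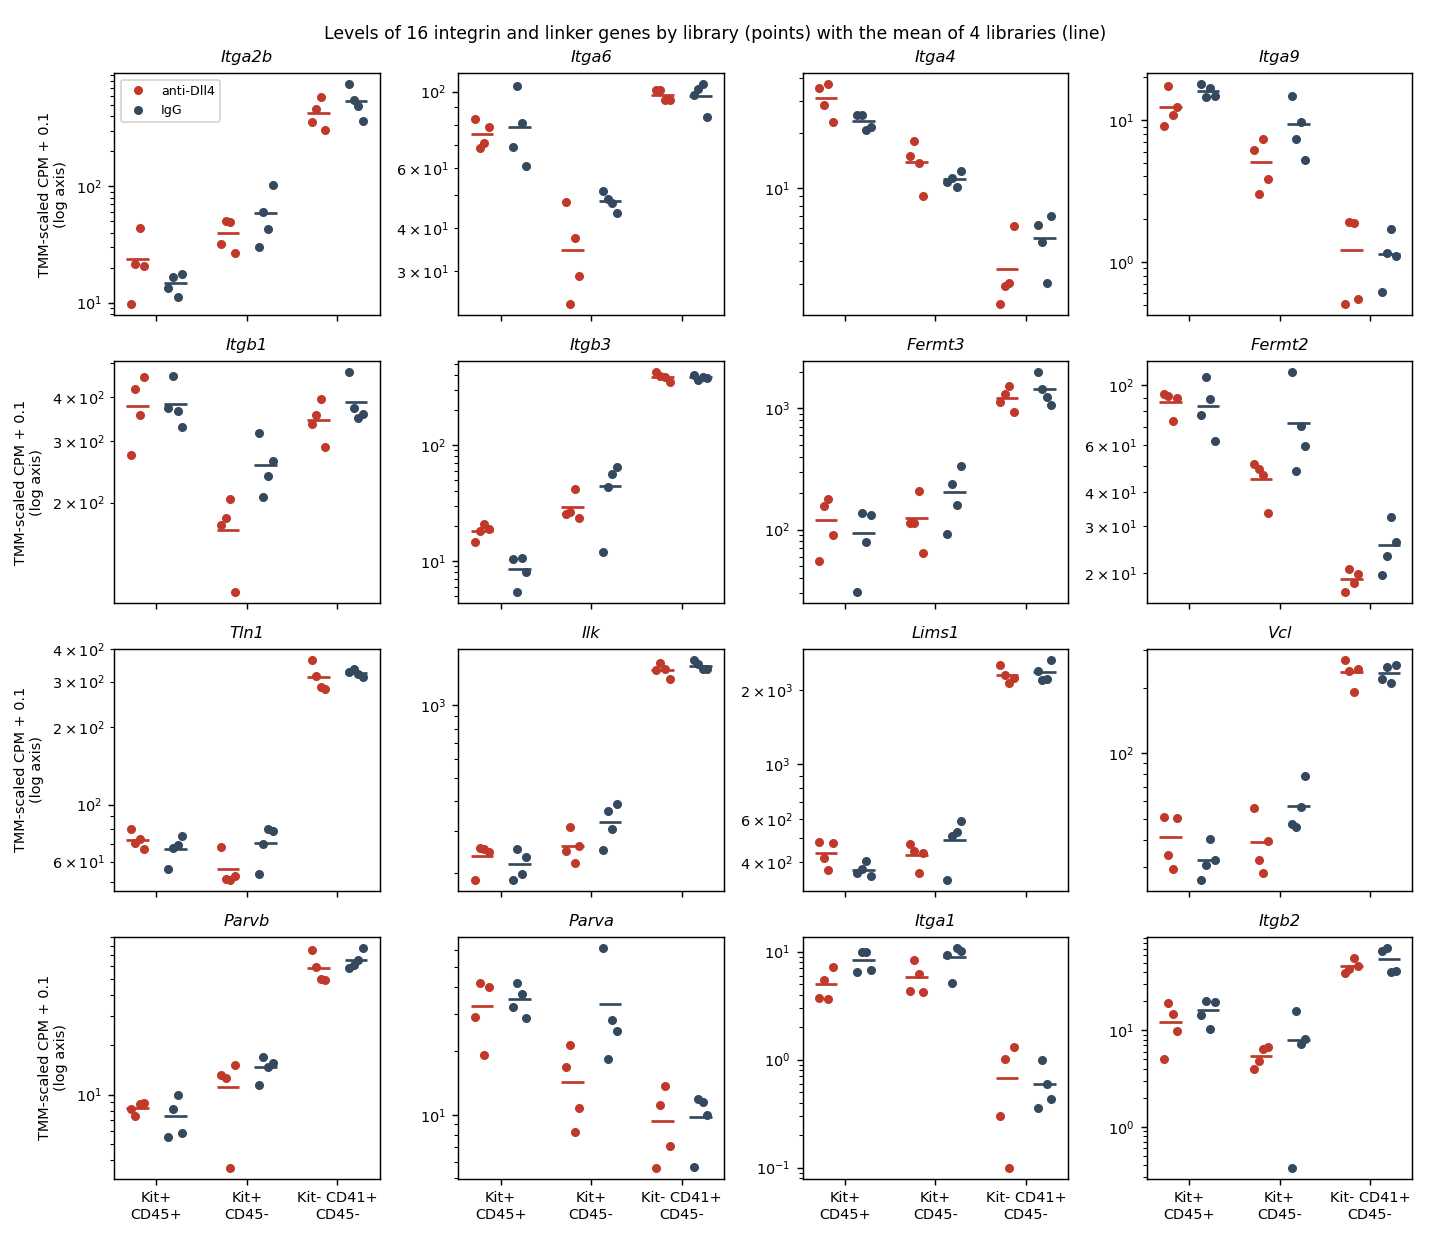
Level of 16 genes in each of the 24 libraries, as TMM-scaled CPM plus 0.1 on a log axis, by population and antibody. Points are libraries and lines are means of 4. Lims1, Ilk, Tln1 and Itgb3 lie highest in Kit- CD41+ CD45- cells under both antibodies, while Fermt2, Itga4 and Itga9 lie lowest there.

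The next comparison set Kit+ CD45+ cells against Kit+ CD45- cells. Itga4, Itga6 and Itgb1 were higher in Kit+ CD45+ cells under either antibody, and Itgam, the alpha chain of the myeloid receptor Mac-1, was detected in these cells alone. Under IgG the platelet chains Itgb3 and Itga2b and the linkers Ilk, Vcl, Parvb and Lims1 were lower in Kit+ CD45+ cells. In all, 4 of 32 genes were higher and 7 lower under IgG, against 10% and 9.18% of all tested genes (19.2% in both directions). Under anti-Dll4, 12 were higher and 1 lower, against 16.6% and 12.6% of all genes (29.2% in both). The higher genes include Itgam under both antibodies. It passed the filter on low counts only through Kit+ CD45+ libraries, so its call is a description and no test. The shares of all genes thus differed between the antibodies as well. Median differences of the 32 genes were -0.02 under IgG and 0.44 under anti-Dll4, beside 0.04 and 0.1 over all genes. Without Kit+ CD45- IgG replicate 1 the counts were 14 under IgG and 15 under anti-Dll4. Without Kit+ CD45- anti-Dll4 replicate 4 the count under anti-Dll4 was 9. It was 8 without Kit+ CD45+ anti-Dll4 replicate 2 or without Kit+ CD45- anti-Dll4 replicate 2. Shares of all genes called in these fits are not given here. These counts thus do not show whether the listed genes moved more than other genes.

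Itga6 (chr2:71745616-71858416) and Itga4 (chr2:79255426-79333123) lie on the plus strand of the same chromosome. Itga6, a laminin receptor chain, had 68.9, 104, 80.9 and 60.7 CPM in Kit+ CD45+ cells under IgG, against 51.4, 48.5, 47.3 and 44.1 CPM in Kit+ CD45- cells. Its anti-Dll4 libraries had 83.1, 68.2, 70.9 and 78.6 CPM, against 47.7, 23.9, 37.3 and 28.9 CPM. The groups did not overlap under either antibody (0.72, SE 0.17, adjusted p = 0.00379 under IgG, and 1.12, SE 0.17, adjusted p = 3.1e-05 under anti-Dll4). Itga4 had 24.9, 25.1, 20.7 and 21.5 CPM in Kit+ CD45+ cells under IgG, against 10.7, 11.2, 9.98 and 12.2 CPM. With anti-Dll4 its values were 35, 28.3, 36.8 and 22.9 CPM, against 14.8, 17.9, 13.5 and 8.96 CPM. Again no library of one population reached the other, with differences of 1.07 (SE 0.27, adjusted p = 0.00737) under IgG and 1.15 (SE 0.27, adjusted p = 0.00266) under anti-Dll4.

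Itgb1 (chr8:128685654-128733200, plus strand) had 373, 461, 365 and 328 CPM in Kit+ CD45+ cells under IgG, against 317, 207, 238 and 263 CPM in Kit+ CD45- cells. The IgG groups were close (0.57, SE 0.18, adjusted p = 0.0271). The adjusted p ran from 0.053 to 0.101 when Kit+ CD45+ IgG replicate 2 or any of Kit+ CD45- IgG replicates 2, 3 and 4 was left out. Under anti-Dll4, Itgb1 had 274, 421, 356 and 456 CPM, against 173, 181, 205 and 111 CPM (1.17, SE 0.18, adjusted p = 4.19e-05). There the groups were apart, and no library left out took the call away.

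Itgam had 3.17, 1.47, 1.72 and 1.75 CPM in Kit+ CD45+ cells under anti-Dll4 and 0.865, 2.42, 2.97 and 5.02 CPM under IgG, and no count in the 16 libraries of the other populations. Against a floor of 3 counts per library it was at least 8.05-fold higher than in Kit+ CD45- cells and at least 9.76-fold higher than in Kit- CD41+ CD45- cells under IgG. Under anti-Dll4 the bounds were 4.66-fold and 6.49-fold. A second identifier with the same symbol, which covers 68.7% of the exon length of the first, had 1 count under anti-Dll4 and 2 under IgG, so reads split between them cannot be placed. The 9 macrophage markers summed to 848 to 1830 CPM under anti-Dll4 and 197 to 2342 CPM under IgG in Kit+ CD45+ cells, and to at most 25.3 CPM elsewhere. Their part in the level of Itgam was not tested. Itgb2, which pairs with Itgam, averaged 15.9 ± 4.67 CPM in Kit+ CD45+ cells and 7.78 ± 6.32 CPM in Kit+ CD45- cells under IgG and did not pass the test (1.06, SE 0.52, adjusted p = 0.166). Without Kit+ CD45- IgG replicate 2 it did (1.65, SE 0.55, adjusted p = 0.0458).

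In the other direction, Itgb3 had 10.38, 5.3, 10.51 and 7.89 CPM in Kit+ CD45+ cells under IgG, against the 11.8 to 65.2 CPM of Kit+ CD45- cells given above (-2.36, SE 0.32, adjusted p = 1.17e-05). Itga2b had 13.4, 16.4, 11 and 17.4 CPM, against 29.9 to 102 CPM (-2.0, SE 0.38, adjusted p = 0.000503). Under anti-Dll4, Itgb3 had 14.5, 18, 20.8 and 18.7 CPM in Kit+ CD45+ cells, against 23.6 to 41.4 CPM in Kit+ CD45- cells (-0.70, SE 0.31, adjusted p = 0.096). Itga2b had 9.59, 21.6, 43.6 and 20.7 CPM, against 26.9 to 49.9 CPM (-0.74, SE 0.37, adjusted p = 0.141). Neither passed under anti-Dll4 with all libraries. Itgb3 passed there without Kit+ CD45- IgG replicate 1 (-0.69, SE 0.19, adjusted p = 0.00793), and Itga2b without Kit+ CD45+ anti-Dll4 replicate 3 (-1.19, SE 0.36, adjusted p = 0.0199). Ilk had 188, 252, 198 and 235 CPM in Kit+ CD45+ cells under IgG, against 251 to 388 CPM in Kit+ CD45- cells (-0.59, SE 0.14, adjusted p = 0.00379). Its neighbour Taf10 averaged 315 ± 41.6 CPM in Kit+ CD45+ cells and 495 ± 100 CPM in Kit+ CD45- cells under IgG. The part of Taf10 reads in the Ilk value was not tested. Vcl, the actin binder vinculin, had 26, 30.5, 40.1 and 32 CPM, against 47.3, 45.5, 56.3 and 78.3 CPM (-0.82, SE 0.21, adjusted p = 0.00838).

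The genes called under IgG changed when Kit+ CD45- IgG replicate 1 was left out. Pxn then passed at 1.26 (SE 0.30, adjusted p = 0.00395), beside 0.58 (adjusted p = 0.278) with all libraries. Itgb5 passed at 2.25 (SE 0.72, adjusted p = 0.0278), beside 1.48 (adjusted p = 0.123), and Fermt3 at -1.36 (SE 0.43, adjusted p = 0.0287), beside -1.12 (adjusted p = 0.0704). Several of the smaller calls rested on single libraries. Lims1 (-0.40, SE 0.14, adjusted p = 0.0392) had an adjusted p from 0.0756 to 0.148 without any of Kit+ CD45+ IgG replicates 1, 2 and 4 or Kit+ CD45- IgG replicates 2, 3 and 4. Parvb (-0.99, SE 0.28, adjusted p = 0.0154) had 0.0503 and 0.055 without Kit+ CD45+ IgG replicate 4 or 1. Itgae, the alpha chain of an E-cadherin receptor of lymphocytes, was called on 2 counts against 24. Its adjusted p was above 0.05 without any of Kit+ CD45+ IgG replicates 1, 2 and 3 or Kit+ CD45- IgG replicates 2 and 3.

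Under anti-Dll4 the linkers Fermt2 (0.95, SE 0.21, adjusted p = 0.00164), Pxn (1.36, SE 0.37), Parva (1.20, SE 0.37) and Tln1 (0.38, SE 0.13) were higher in Kit+ CD45+ cells. Pxn and Itgb5 were also higher under IgG once Kit+ CD45- IgG replicate 1 was left out, as given above. Higher under anti-Dll4 too were Itgb5, a vitronectin receptor chain (2.84, SE 0.72, adjusted p = 0.00464), and the alpha chains Itga9 (1.29, SE 0.40), Itgal (2.30, SE 0.74) and Itga5 (1.04, SE 0.37). Itgb8 was lower, on 9 counts against 67. Most of these calls were lost without some single library. Among the Kit+ CD45+ anti-Dll4 libraries these were replicate 2 or 4 for Parva, replicate 2 for Itga9, replicate 3 for Itgal, any of 2, 3 and 4 for Itga5 and Itgb8, and any of 1, 2 and 3 for Tln1. Among the Kit+ CD45- anti-Dll4 libraries they were replicate 3 or 4 for Parva, 2 or 4 for Itga9, 1 or 2 for Itgal, any of 1, 2 and 4 for Itga5, 2 or 3 for Itgb8 and any of 2, 3 and 4 for Tln1. The highest adjusted p so reached was 0.0577 for Parva, 0.0698 for Itga9, 0.0721 for Itgal, 0.113 for Itga5, 0.116 for Tln1 and 0.137 for Itgb8. Leaving out a library of another group took Tln1 to 0.0512 (Kit+ CD45- IgG replicate 2) and Itgb8 to 0.0509 (Kit- CD41+ CD45- IgG replicate 2). Genes that passed under 1 antibody and not the other are not shown to differ between antibodies: the test of that difference is given with the antibody results.

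The comparison of Kit+ CD45+ with Kit- CD41+ CD45- cells had the most called genes under IgG. This comparison shares its libraries with the previous pairs, so its values stand beside theirs and add no independent evidence. Under IgG, 9 genes were higher and 13 lower, against 19.7% and 17.5% of all genes (37.2% in both directions). Under anti-Dll4, 9 were higher and 11 lower, against 20.4% and 17.3% (37.6% in both). Itgam, which passed the filter only through Kit+ CD45+ libraries, is among the higher genes under both antibodies. In all, 8 higher and 11 lower genes were called under both antibodies. The median of the 32 genes was -0.17 under IgG, against 0.05 over all genes.

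Itgb3 was lower in Kit+ CD45+ cells, with differences of -5.49 (SE 0.36, adjusted p = 7.18e-11) under IgG and -4.43 (SE 0.34) under anti-Dll4. Lims1 had 362, 376, 403 and 351 CPM in Kit+ CD45+ cells under IgG, below the 2197 to 2660 CPM of Kit- CD41+ CD45- cells, and Tln1 had 55.9, 67.4, 69.5 and 75.6 CPM, below 313 to 334 CPM. The linkers Ilk (-2.75, SE 0.15), Lims1 (-2.67, SE 0.14) and Tln1 (-2.27, SE 0.14) were again lower in Kit+ CD45+ cells under IgG. Higher there were Itga9 (3.92, SE 0.46), Fermt2 (1.73, SE 0.22), Itga4 (2.14, SE 0.28) and Itga1 (4.01, SE 0.57), all with adjusted p of 5.16e-06 or less. In Kit+ CD45+ cells under IgG, Itga9 had 17.8, 14.5, 16.7 and 14.6 CPM, with no library of Kit- CD41+ CD45- cells above 1.6 CPM. Fermt2 had 77.4, 107, 88.9 and 62.1 CPM there, above the 19.6 to 32.2 CPM of Kit- CD41+ CD45- cells, and Itga1 had 6.39, 9.92, 9.9 and 6.63 CPM, above 0.257 to 0.885 CPM. Itga4 had 6.16, 4.96, 2.91 and 6.88 CPM in Kit- CD41+ CD45- cells under IgG, so it was lowest there and highest in Kit+ CD45+ cells. Itga6 (-0.31, SE 0.17, adjusted p = 0.16) and Itgb1 (-0.02, SE 0.18, adjusted p = 0.936) did not pass, though Itga6 did without Kit+ CD45+ IgG replicate 2 (-0.47, SE 0.17, adjusted p = 0.0336). For both, the level was lowest in Kit+ CD45- cells: Itgb1 averaged 382 ± 56, 256 ± 46.6 and 388 ± 56.8 CPM in Kit+ CD45+, Kit+ CD45- and Kit- CD41+ CD45- cells under IgG. The call of Tln2, the other talin (1.21, SE 0.45, adjusted p = 0.0354), had an adjusted p of 0.152 without Kit+ CD45+ IgG replicate 1 and from 0.0604 to 0.112 without Kit+ CD45+ IgG replicate 4 or Kit- CD41+ CD45- IgG replicate 1, 2 or 4. Itgae and Itgb8 were called under IgG on 2 and 3 counts in Kit+ CD45+ cells, against 55 and 68.

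**Figure D3:**
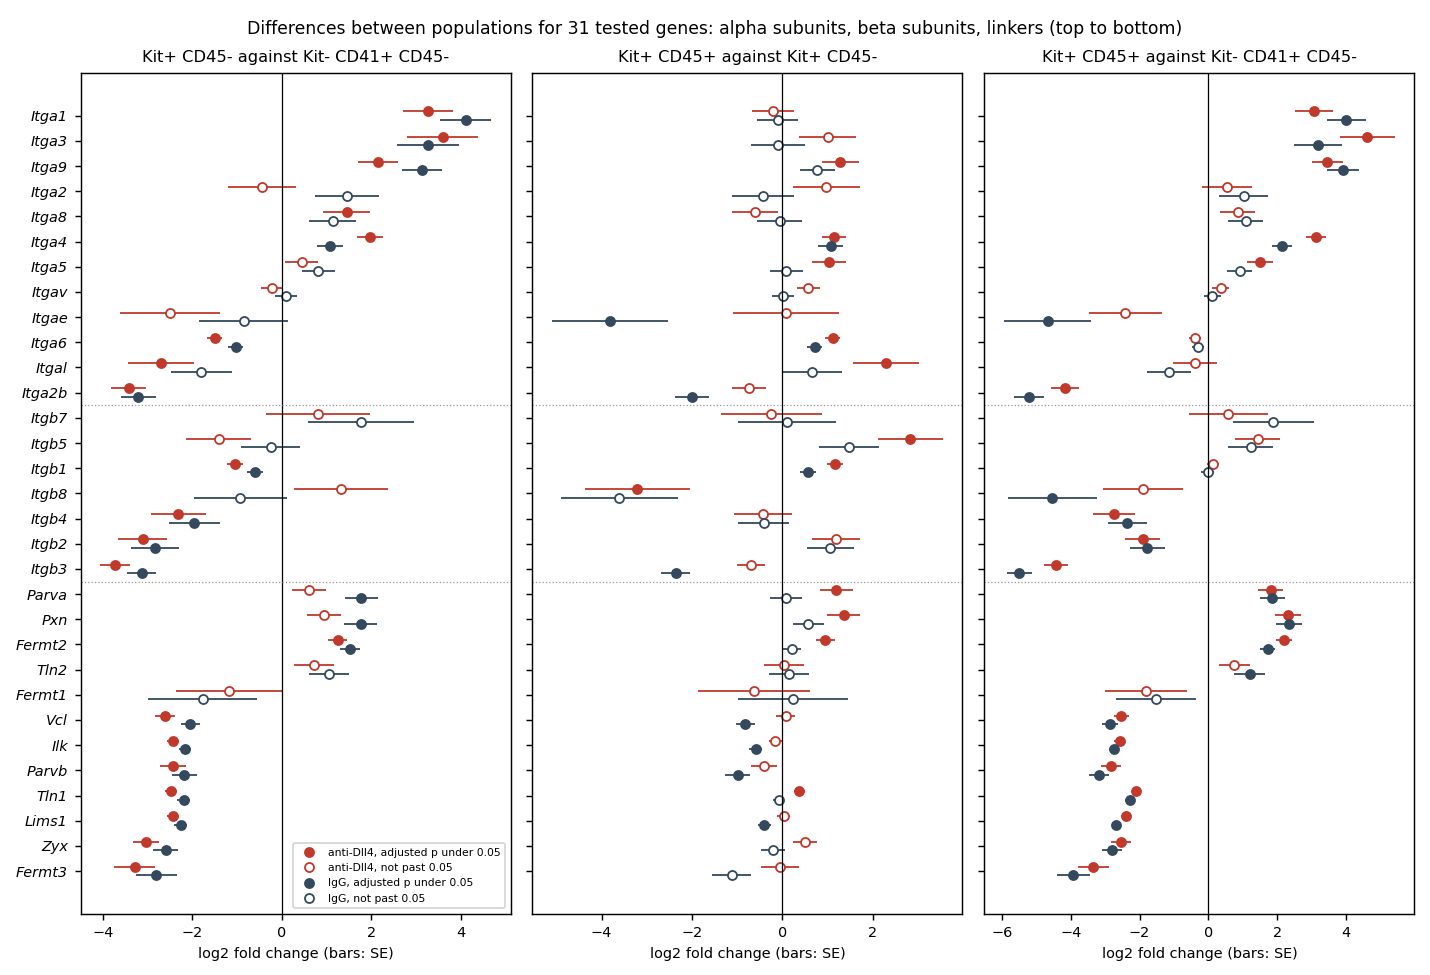
Log2 fold change with SE for 31 genes in the 3 pairs of populations, anti-Dll4 and IgG apart. Itgam is left out, since it has no count in 2 of the populations. Filled points passed an adjusted p of 0.05. Most linkers lie left of 0 wherever Kit- CD41+ CD45- cells are the population compared with, and Fermt2, Itga9 and Itga1 lie right of it.

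Among genes not named so far, Itgav, the vitronectin receptor alpha chain, had close means in the populations under IgG, at 13.9 ± 3.56 CPM in Kit+ CD45+ cells, 13.7 ± 3.08 CPM in Kit+ CD45- cells and 12.8 ± 1.97 CPM in Kit- CD41+ CD45- cells, and passed in no comparison with all libraries. It passed under anti-Dll4 for Kit+ CD45+ against Kit+ CD45- cells without Kit+ CD45- anti-Dll4 replicate 1 (0.74, SE 0.27, adjusted p = 0.0452, beside 0.58 and 0.0853). Itga8, a nephronectin receptor chain, averaged 4.6 ± 1.56 CPM in Kit+ CD45- cells and 1.66 ± 0.879 CPM in Kit- CD41+ CD45- cells under anti-Dll4 and was called there (1.45, SE 0.53, adjusted p = 0.0406). That call was lost without Kit+ CD45- anti-Dll4 replicate 1, 2 or 4 or Kit- CD41+ CD45- anti-Dll4 replicate 1, 2 or 4 (adjusted p up to 0.115). Itga2, a collagen receptor chain, Itgb7 of gut-homing leukocytes and Fermt1, the epithelial kindlin, averaged at most 3.03 CPM in any group and passed in no comparison with all libraries. Itgb6, an epithelial chain, had 11 counts under anti-Dll4 and 34 under IgG in Kit+ CD45+ cells, at most 18 in any other group, and was not tested.

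The series asked what blocking Dll4 changes, and for this gene list edgeR called no gene in any population. The fraction of all genes called was 0% in Kit+ CD45- and in Kit- CD41+ CD45- cells and 0.0064% in Kit+ CD45+ cells. DESeq2 called 0 of these genes as well. At an unadjusted p under 0.05, edgeR counted 12 of 32 genes in Kit+ CD45- cells, against 11.1% of all genes. It counted 1 in Kit- CD41+ CD45- cells, against 2.79%, and 1 in Kit+ CD45+ cells, against 2.9%. DESeq2 counted 12, 1 and 2. Its own share of all genes at that p is not given here, and the shares above are those of edgeR. For the mean of the 3 effects 6 genes had such a p with edgeR and 7 with DESeq2, against 8.39% of all genes with edgeR, and 0 were called by either.

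In Kit+ CD45- cells, 27 of the 32 genes had a lower estimate under anti-Dll4, with a median of -0.57 beside -0.03 over all tested genes. The smallest p belonged to Itgb1, Parva and Fermt2. Itgb1 had 173, 181, 205 and 111 CPM under anti-Dll4, against 317, 207, 238 and 263 CPM under IgG. The groups of Itgb1 did not overlap, as for 3.15% of all genes, yet the difference did not pass (-0.61, SE 0.18, adjusted p = 0.251). Parva had 16.7, 21.2, 8.2 and 10.7 CPM, against 61.5, 18.3, 27.8 and 24.8 CPM (-1.22, SE 0.37, adjusted p = 0.255). Fermt2 had 50.7, 48.6, 46.3 and 33.5 CPM, against 112, 47.7, 70.7 and 59.4 CPM (-0.69, SE 0.21, adjusted p = 0.26). For both, IgG replicate 1 was the highest library of its group, and the rest of each group overlapped. Itga3 had 3.96, 4.03, 5.5 and 4.59 CPM, against 20.7, 7.93, 12.1 and 9.57 CPM, with no overlap (-1.47, SE 0.64, adjusted p = 0.412).

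Without Kit+ CD45- IgG replicate 1 the estimates of these genes were nearer 0 and that of the platelet chain Itgb3 was farther from it. Parva was then at -0.74 (SE 0.34), Fermt2 at -0.40 (SE 0.19), Itgb1 at -0.49 (SE 0.19) and Itga3 at -1.12 (SE 0.67). Itgb3, at -0.58 (SE 0.31, adjusted p = 0.473) with all libraries, was at -0.90 (SE 0.20, adjusted p = 0.127). Tln1 also moved away from 0, to -0.45 (adjusted p = 0.308) from -0.34 (adjusted p = 0.397) with all libraries. Ilk was at -0.44 (adjusted p = 0.394) and Lims1 at -0.35 (adjusted p = 0.489). In that fit 26 of 32 estimates were negative and 14 had p under 0.05, against 5.99% of all genes, and none was called. Without replicate 1 of every group, Tln1 was called, at -0.57 (adjusted p = 0.0205). Without Kit+ CD45- anti-Dll4 replicate 4, 26 of 32 estimates were negative, 11 had p under 0.05, against 6.71% of all genes, and none was called, with a median of -0.50 beside -0.02. Without Kit+ CD45- anti-Dll4 replicate 2 the number with p under 0.05 was 7, against 9.35%.

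Markers of other cells moved beside them. In Kit+ CD45- cells the platelet markers summed to a median of 822 CPM under anti-Dll4 and 2945 CPM under IgG, with ranges of 512 to 1649 and 766 to 3664 CPM, and all 11 had a lower estimate under anti-Dll4. The endothelial markers summed to 690 CPM under anti-Dll4 and 1065 CPM under IgG, and all 10 had a lower estimate. The erythroid genes summed to 466094 CPM under anti-Dll4 and 325265 CPM under IgG, and all 9 had a higher one. Their part in the values of the integrin genes was not tested.

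Kit+ CD45+ cells had 1 gene with p under 0.05, Itgb3, which moved the other way. It had 14.5, 18, 20.8 and 18.7 CPM under anti-Dll4, against 10.38, 5.3, 10.51 and 7.89 CPM under IgG. All 4 anti-Dll4 libraries lay above all 4 IgG libraries, as for 1.8% of all genes in either direction, and the difference did not pass (1.08, SE 0.32, adjusted p = 0.947). Itga2b had 9.59, 21.6, 43.6 and 20.7 CPM, against 13.4, 16.4, 11 and 17.4 CPM (0.71, SE 0.37, adjusted p = 1). Itgae had 7, 0, 5 and 0 counts, against 0, 0, 0 and 2 counts (adjusted p = 1). Of the 11 platelet markers all had a higher estimate under anti-Dll4 in these cells, with a median summed level of 481 CPM against 288 CPM. Their part was not tested. Macrophage markers summed to 1243 CPM under anti-Dll4 and 1902 CPM under IgG, beside an Itgam difference of -0.47 (SE 0.67, adjusted p = 1).

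In Kit- CD41+ CD45- cells the median antibody difference of the 32 genes was -0.15, and in Kit+ CD45+ cells it was 0.03. Itga3 had 0, 1.01, 0.418 and 0 CPM under anti-Dll4, against 0, 2.66, 1.3 and 1.22 CPM under IgG, on 14 and 54 counts (-1.80, SE 0.84, adjusted p = 1). Itga4 had 2.21, 2.82, 2.92 and 6.12 CPM, against 6.16, 4.96, 2.91 and 6.88 CPM (-0.57, SE 0.29, adjusted p = 1). Fermt2 had 16.9, 20.7, 18.2 and 19.7 CPM, against 19.6, 23.1, 32.2 and 26.1 CPM (-0.42, SE 0.22, adjusted p = 1). In each of these the groups overlapped. In these cells no gene of the list had groups without overlap, as 2.22% of all genes did. The estimates of the genes that mark this population were -0.04 (SE 0.13) for Lims1, -0.06 (SE 0.14) for Ilk, -0.06 (SE 0.13) for Tln1 and 0.02 (SE 0.29) for Itgb3.

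Over the mean of the 3 populations, Itga3 (-1.22, SE 0.40, adjusted p = 0.503), Fermt2 (-0.35, SE 0.12, adjusted p = 0.534) and Itgb4 (-0.88, SE 0.34, adjusted p = 0.568) had the smallest p. Itgb4 had 0.745, 0.155, 0.602 and 0.772 CPM under anti-Dll4, against 1.93, 1.21, 0.838 and 0.627 CPM under IgG in Kit+ CD45+ cells. It had 0.546, 0.882, 0.3 and 1.53 CPM, against 1.01, 2.32, 2.47 and 0.378 CPM in Kit+ CD45- cells. Kit- CD41+ CD45- cells had 1.71, 5.04, 6.37 and 2.34 CPM, against 5.05, 5.84, 7.51 and 5.55 CPM. Every population mean of Itgb4 was lower under anti-Dll4 and every pair of groups overlapped.

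Whether the antibody effect differs between populations was tested over all genes, and 0.0256% passed, none of them in this list. At an unadjusted p under 0.05 edgeR had 3 genes of the list, against 4.04% of all genes. DESeq2 called 0 and had 5 at that p, with no share of all genes given for it. Itgb3 had the smallest p of the list (adjusted p = 0.852), followed by Vcl (adjusted p = 1) and Itga4 (adjusted p = 1). Without Kit+ CD45- IgG replicate 1, the difference for Itgb3 passed (adjusted p = 0.00998), and it passed too without replicate 1 of every group (adjusted p = 0.0182). The Itgb3 effects behind it were 1.08 in Kit+ CD45+ cells, -0.58 (-0.90 without that library) among Kit+ CD45- cells, and close to 0 (0.02) in Kit- CD41+ CD45- cells.

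**Figure D4:**
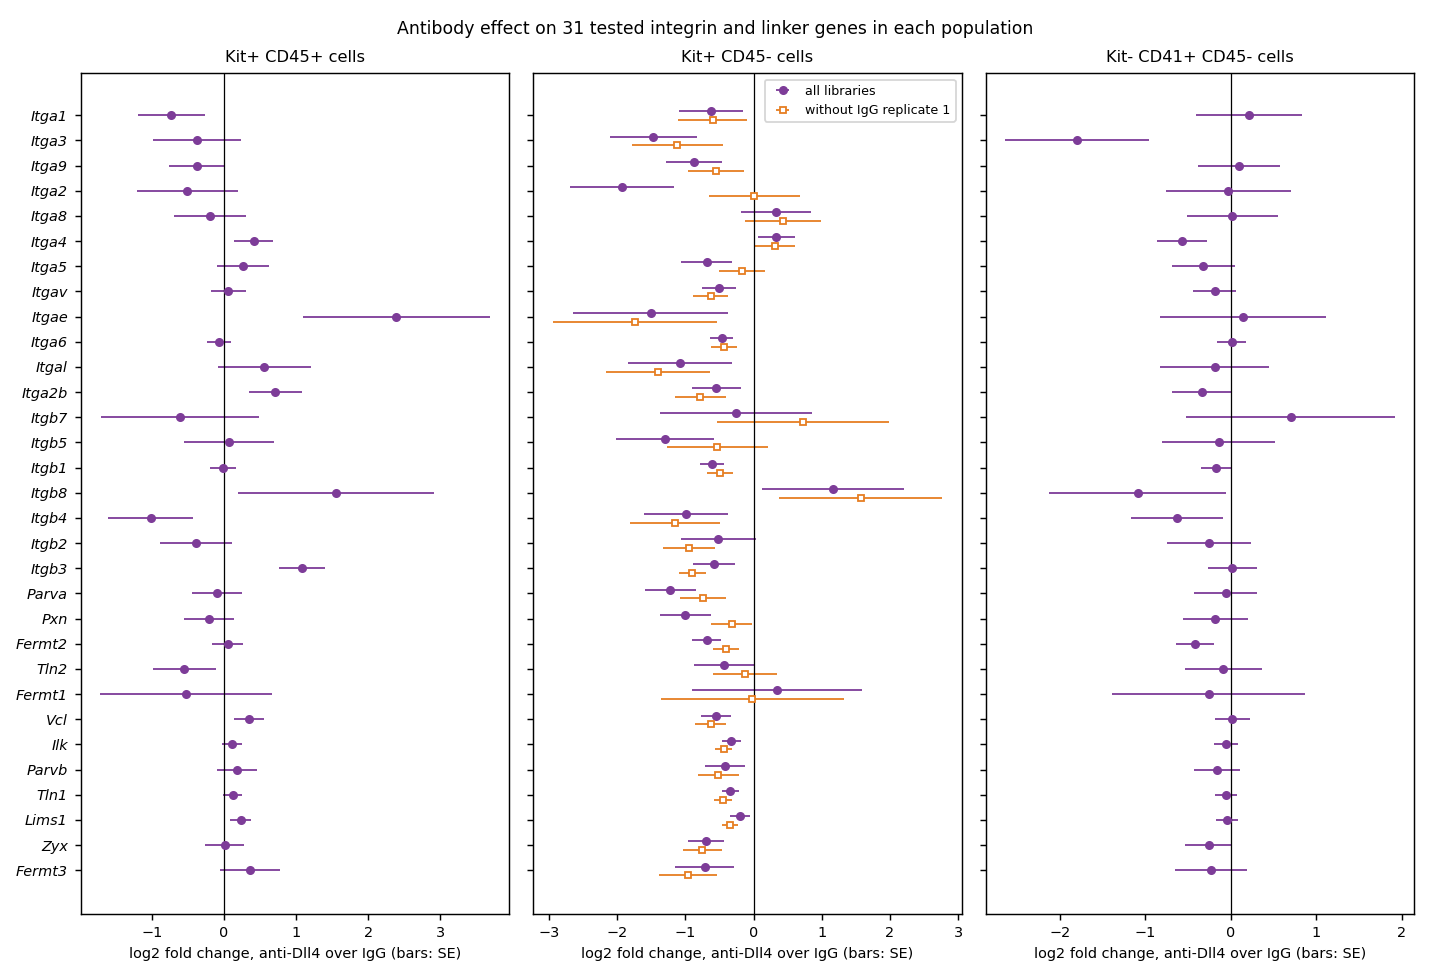
Log2 fold change of anti-Dll4 over IgG with SE for 31 genes in each population, with Kit+ CD45- cells drawn also without IgG replicate 1. No point passed an adjusted p of 0.05. Most points of Kit+ CD45- cells lie left of 0, with Itgb3 at -0.58, while Itgb3 lies at 1.08 in Kit+ CD45+ cells and near 0, at 0.02, in Kit- CD41+ CD45- cells.

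Genes that work with integrins were taken from a list of 40 signalling partners, of which 38 were tested. The list also holds Itga11, an alpha chain that is not among the 16 of the summed alpha level. In Kit+ CD45- against Kit- CD41+ CD45- cells under IgG, 5 were higher and 16 lower, where 14% and 13.8% of all genes were, with a median of -0.29 beside 0.06 over all genes. The higher ones numbered 3 without any one of Kit+ CD45- IgG replicates 1 and 4 and Kit- CD41+ CD45- IgG replicate 4. Lower were Actn1, an alpha-actinin that cross-links actin (23 ± 3.23 against 86.8 ± 4.28 CPM), Rsu1, a partner of PINCH (427 ± 95.8 against 2474 ± 165 CPM), and Tgfb1i1, the paxillin relative Hic-5 (69.1 ± 16.6 against 468 ± 50.2 CPM). Higher were the endocytic adaptor Dab2 (35.2 ± 15.8 against 5.73 ± 3.98 CPM), the paxillin binder Git1 (15.7 ± 5.62 against 6.98 ± 1.21 CPM) and the talin binder Kank1 (3.25, SE 0.70, or 2.43 without Kit+ CD45- IgG replicate 1). In Kit+ CD45+ against Kit+ CD45- cells under IgG, 7 were higher and 5 lower, where 10% and 9.18% of all genes were, with a median of 0.28 beside 0.04. The lower ones numbered 3 without Kit+ CD45- IgG replicate 2 or 4 or Kit+ CD45+ IgG replicate 2. Apbb1ip, which encodes RIAM and brings talin to the membrane, averaged 32.8 ± 8.84 CPM in Kit+ CD45+ cells and 3.77 ± 2.33 CPM in Kit+ CD45- cells. Lpxn, the leukocyte paxillin leupaxin, stood at 24.8 ± 16.2 CPM in Kit+ CD45+ cells, against 0.906 ± 0.623 CPM. Under anti-Dll4 13 were higher and 0 lower in that comparison, against 16.6% and 12.6% of all genes, and 8 were higher without Kit+ CD45- anti-Dll4 replicate 4. In Kit+ CD45+ against Kit- CD41+ CD45- cells under IgG, 10 were higher and 12 lower, where 19.7% and 17.5% of all genes were, with a median of 0.14 beside 0.05.

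Of 26 genes for integrin ligands, 23 were tested. Under IgG, 7 were higher and 4 lower in Kit+ CD45- against Kit- CD41+ CD45- cells, 2 and 4 in Kit+ CD45+ against Kit+ CD45- cells, and 9 and 6 in Kit+ CD45+ against Kit- CD41+ CD45- cells. Of all genes, 14% and 13.8%, 10% and 9.18%, and 19.7% and 17.5% were called higher and lower in these comparisons. The medians were 0.80, 0.28 and 0.20 in that order. Both ligands higher in Kit+ CD45+ against Kit+ CD45- cells, Spp1 (4.06, adjusted p = 0.0187) and Icam1 (1.17, adjusted p = 0.0444), were lost without any one of Kit+ CD45- IgG replicates 2 and 3 and Kit+ CD45+ IgG replicate 3, and the count of higher ligands was 1 in many of the other fits with a library left out. Without Kit+ CD45- IgG replicate 3 the lower ligands numbered 3. Fibronectin, Fn1, stood at 88.4 ± 30.1 CPM in Kit+ CD45+ cells, 92.9 ± 24.3 CPM in Kit+ CD45- cells and 11.6 ± 4.07 CPM in Kit- CD41+ CD45- cells. Icam2, an endothelial ligand of beta2 integrins, stood at 161 ± 34.3, 114 ± 32.7 and 13.7 ± 8.19 CPM in the same order. Thrombospondin 1, Thbs1, ran the other way at 13.1 ± 7.83, 135 ± 44.7 and 1204 ± 86.8 CPM. The red cell ligand Icam4 averaged 3.5 ± 3.05 CPM in Kit+ CD45+ cells and 111 ± 52 CPM in Kit+ CD45- cells (-5.01, SE 0.65, adjusted p = 5.65e-06). With the antibody, edgeR called 0 partners and 0 ligands in any population with all libraries, and 1 partner without Kit+ CD45- anti-Dll4 replicate 1 or Kit+ CD45- IgG replicate 2. At an unadjusted p under 0.05 there were 7 partners (18.4%) and 8 ligands (34.8%) in Kit+ CD45- cells, against 11.1% of all genes, where 28 of 38 partners and 21 of 23 ligands had a lower estimate under anti-Dll4. Without Kit+ CD45- IgG replicate 1 there were 7 partners and 3 ligands, against 5.99% of all genes. The ligands numbered 4 and 5 without Kit+ CD45- anti-Dll4 replicate 2 or 4, and the partners 4 without Kit+ CD45- IgG replicate 4.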

How the data were processed

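RNA-seq was run on 24 libraries of sorted CD31+ cells, in 6 groups of 4 set by population and antibody in the sample titles. Per the labels' protocols, polyadenylated RNA was made into cDNA that was amplified by PCR before sequencing. Raw counts per gene were deposited by the authors, and the submitters' processing notes name CASAVA 1.4, FastQC, STAR, HTSeq, DESeq2 and the mm10 build, with no role for each. For the annotation release and the strandedness of counting, nothing is stated in the sources used here. The second deposited table holds log2 values, which equal log2(count divided by a size factor, plus 1) with a largest deviation of 5.3e-14. It supplied gene names and the list match. It has 1 column of no listed sample, which was not used.

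The 36 genes, the marker lists and the partner and ligand lists were chosen with earlier results of these data known. Counts were fitted with edgeR 4.0.16 in R 4.3.3 (limma 3.58.1): TMM scaling, the edgeR filter on low counts by group, 1 coefficient per group over all 24 libraries (18 residual degrees of freedom) and the robust quasi-likelihood test. All p and adjusted p are from that test, with Benjamini-Hochberg adjustment over 15618 genes, and a gene is called at an adjusted p under 0.05. Levels per kb used the exon lengths of a mm10 annotation. The steps were tested on simulated data. Values for each library are given for Itga2b and Itgb3. For each pair of populations under IgG they are also given for the 4 called genes with the smallest p in each direction at 5 CPM or more, and for each antibody comparison for the 3 genes with the smallest p. Other genes are given by means, ranges or counts. Up to 3 called partners and ligands per direction were named the same way.

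A count of 0 was bounded with 3 counts per library. Amplified reads without molecular identifiers are not independent molecules, so this floor covers counting error only. No source says whether replicates are separate embryos or pools, so p-values measure the spread between these libraries, which may be technical. No pair of libraries held identical values. Alternatives were 2 other scalings, no filter, globin genes left out, DESeq2 1.42.0, a replicate block and leaving out libraries.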

Additional observations from a re-analysis of the deposited data

Results flagged for a closer look

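In 10 of 164 groups of 4 libraries, 1 library of a gene lay farther from the others than Dixon's 95% critical value allows. Chance flags about 1 in 20 groups. Kit+ CD45- IgG replicate 1 was the outlying library for Itga2, at 9.78 CPM against 0.378 to 1.57 CPM in the others, and for Pxn, at 24.4 CPM against 6.01 to 8.07 CPM. In Kit+ CD45- anti-Dll4 libraries, Itgb3 was at 41.4 CPM in replicate 3, against 23.6 to 26.2 CPM, and Tln1 at 68.6 CPM in replicate 1, against 50.9 to 52.9 CPM. Among Kit+ CD45+ anti-Dll4 libraries, replicate 1 had Itgam at 3.17 CPM, against 1.47 to 1.75 CPM, and Ilk at 188 CPM, against 245 to 256 CPM, while replicate 3 had Fermt2 at 73.5 CPM, against 90 to 92.5 CPM. Kit+ CD45+ IgG replicate 4 had Pxn at 10.8 CPM, against 19.2 to 19.8 CPM. Itgal was at 1.56 CPM in Kit- CD41+ CD45- anti-Dll4 replicate 4, against 5.33 to 5.84 CPM, and at 9.32 CPM in Kit- CD41+ CD45- IgG replicate 3, against 3.55 to 4.11 CPM.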

How the results depend on the processing

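Counts of called genes stayed within 1.5 times the reported ones under RLE and upper-quartile scaling, no filter, globin genes left out and DESeq2. Upper-quartile scaling put the median of all genes at 0.16 under IgG and 0.21 under anti-Dll4 for Kit+ CD45- against Kit- CD41+ CD45-, beside 0.06 and 0.07. With plain library totals, 1 gene under anti-Dll4 and 1 under IgG was highest in Kit+ CD45- cells, against 4 and 4 with TMM.

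With libraries left out, the calls for Kit+ CD45+ against Kit+ CD45- ranged from 7 to 15 under anti-Dll4 (lowest without replicate 4) and from 6 to 14 under IgG (lowest without replicate 2, with 7 without replicate 3). The calls for the antibody in Kit+ CD45- cells and for the difference between populations ranged from 0 to 1.

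The replicate block by number gave 20, 12 and 20 calls under anti-Dll4 and 20, 9 and 22 under IgG for Kit+ CD45- against Kit- CD41+ CD45-, Kit+ CD45+ against Kit+ CD45- and Kit+ CD45+ against Kit- CD41+ CD45-, and 0 for every antibody comparison. Blocks by set, that is the populations of 1 antibody and number, gave 19, 13 and 21 under anti-Dll4 and 21, 12 and 22 under IgG. For these fits and those with libraries left out, the counts are given without the share of all genes called. Correlations of library deviations ran from -0.064 to 0.197 within sets (median 0.052, 6 of 24 over 0.1). Between other numbers of the same antibody they ran from -0.232 to 0.167 (median -0.022, 3 of 72 over 0.1). Between antibodies, for the same number and population, they ran from -0.147 to 0.1. Between other numbers of the same population, they ran from -0.228 to 0.199 (median 0.02, 5 of 36 over 0.1). Deviations were taken from group means, so values above 0 for the same number pull those of other numbers below 0. Whether libraries of a set are more alike than others is therefore not settled by these values. The main tests treated all libraries as unpaired.

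Depth limits Itga7, Itgad, Itgax and Itgb6, which were not tested, and Itgae and Itgb8, whose calls rest on few counts.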
